A study of Mus musculus with 21 samples.

Results

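The outer skin of the mouse, the interfollicular epidermis, is built from keratinocytes that are held in shape by keratin filaments, and 9 keratin genes of its basal and suprabasal layers are described here. They were taken by name from the 49315 genes of the count files: Krt5, Krt14 and Krt15 as basal keratins, and Krt1, Krt10, Krt2, Krt77, Krt78 and Krt80 as suprabasal keratins. The rule took them by name and layer and holds no threshold on a value, although earlier results of these data were known when they were chosen.

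The series measured RNA of epidermal sheets from mice in which the transcription factors AP-2α (Tfap2a) and AP-2β (Tfap2b) were to be deleted by K14Cre, a Cre recombinase transgene driven by the promoter of the keratin 14 gene and so active in basal keratinocytes and their descendants. Each of the 21 samples had a file of counts per gene, in 7 groups of 3, but in 13 of the 15 files from 3 weeks of age every gene was listed at 0, so 8 libraries are used here. These are 3 strain-specific controls at 6 months with the genotype WT, 3 libraries at 6 months labelled K14CreTfap2afl/flTfap2bfl/fl (called DKO-labelled below, for double knockout), and 2 libraries at 3 weeks labelled K14CreTfap2bfl/fl (Tfap2b knockout). Whether the control mice carried floxed alleles or the transgene, their sex, the site of the skin, and whether replicates were separate mice are not given in the sources used here. The p-values therefore measure the spread between these samples, which may be technical.

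Keratins are intermediate filament proteins of a pair of classes, the acidic type I and the neutral to basic type II, and a filament needs a type I chain and a type II chain side by side. Basal keratinocytes, which divide on the basement membrane, make Krt5 (type II) with Krt14 (type I), and some of them also make the type I keratin Krt15. When a keratinocyte leaves the basal layer it switches to Krt1 (type II) with Krt10 (type I), and further type II keratins appear in the upper layers.

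The 8 libraries held 11318181 to 17746284 counts. Control replicates 1 and 2 stood apart: they held 35794 and 39362 genes with a count, against 23454 to 25537 in the other 6 libraries, and 1.61 and 3.19 counts per exonic kb in odorant and vomeronasal receptor genes, against 0.097 to 0.195. Neither of the genes named as deleted was absent from the counts, and neither changed past an adjusted p of 0.05. Tfap2a stood at 140 to 210.1 CPM (counts per 1000000 counts of the library) in the controls against 213 to 309 CPM in DKO-labelled libraries (log2 fold change 0.47, SE 0.19, n = 3 per group, edgeR quasi-likelihood test, adjusted p = 0.118). Tfap2b stood at 57.3 to 86.6 CPM and 53.8 to 57.2 CPM (log2 fold change -0.43, SE 0.17, adjusted p = 0.111 by the same edgeR test). Counts over the whole gene do not check a deletion of some exons, and every direction below is from the libraries as labelled.

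At 6 months the basal pair Krt5 and Krt14 and the suprabasal keratin Krt1 rose in the DKO-labelled libraries, and Krt80 fell. All 9 keratins passed the filter on low counts: 3 were higher past an adjusted p of 0.05, 1 was lower and 5 did not pass. The calls of Krt5, Krt14, Krt1 and Krt80 also held with each of the 6 libraries left out in turn, control replicates 1 and 2 included, and with the receptor-gene background subtracted. Over all 17755 genes tested, 14.9% passed the same edgeR quasi-likelihood test with Benjamini-Hochberg adjustment, 6.26% higher and 8.59% lower. Scaled by total counts alone, without TMM factors, the split over all genes turned from 1111 higher and 1526 lower to 1414 higher and 1297 lower, and the counts of keratins in each direction were the same. The median log2 fold change of the 9 keratins was -0.03, beside -0.04 for all genes tested. In 5 of the 9 keratins, 3 higher and 2 lower, the libraries of the groups did not overlap, which also held for 38.7% of all genes tested (22.5% higher and 16.3% lower). Because the libraries are bulk RNA, fewer cells of a type and less RNA per cell cannot be told apart in any of these values.

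**Figure D1:**
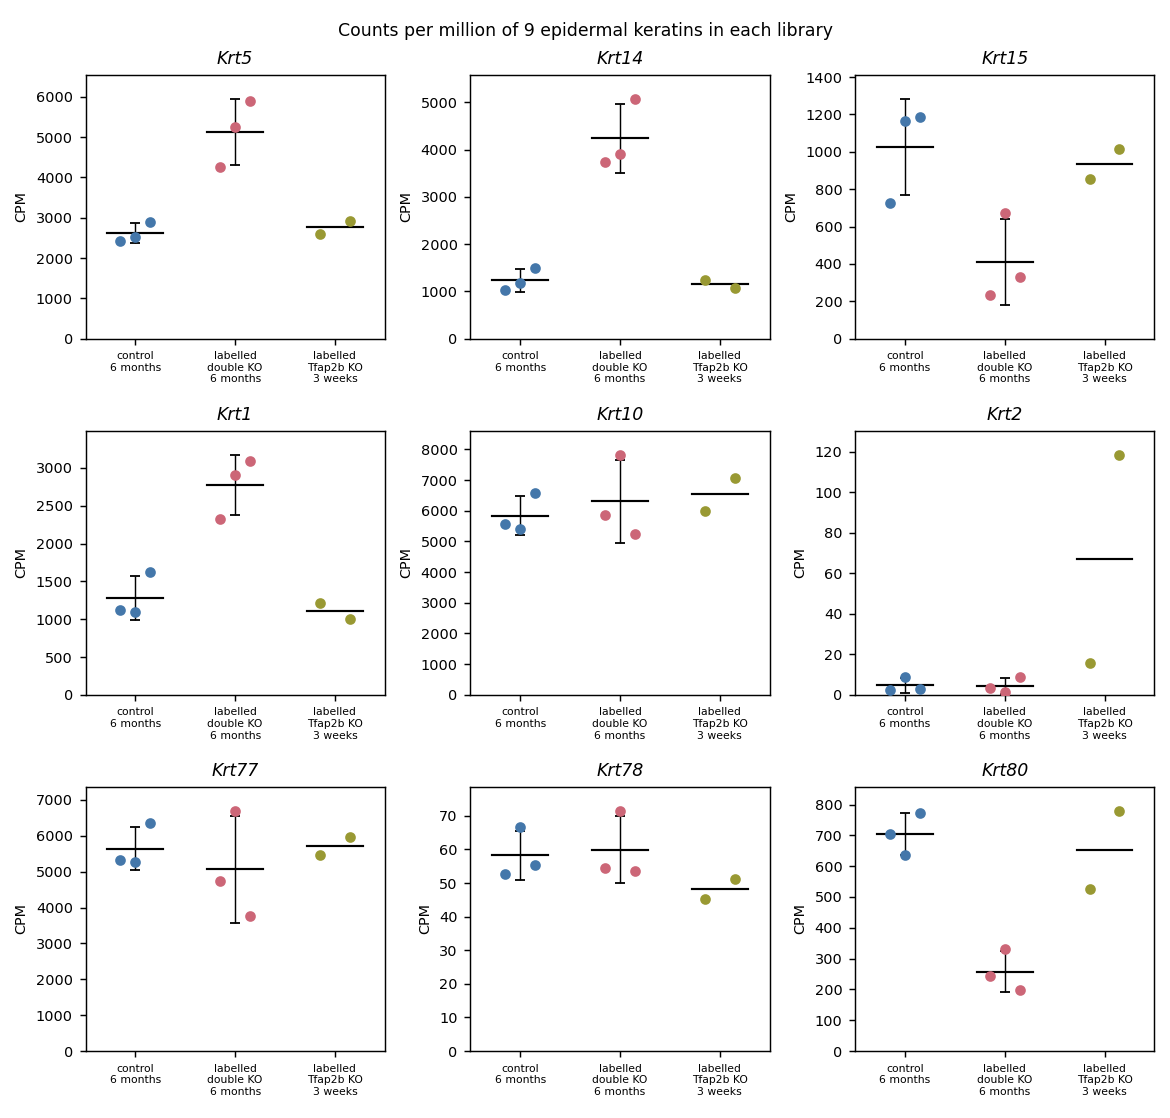
CPM of each of the 9 keratins (vertical axis, linear, from 0) in the 3 control libraries at 6 months, the 3 libraries labelled double knockout (KO) at 6 months and the 2 labelled Tfap2b knockout at 3 weeks; points are libraries, horizontal lines the means and vertical bars the SD of groups of 3. The groups at 6 months do not overlap for Krt5, Krt14 and Krt1, which are higher in the DKO-labelled libraries, or for Krt15 and Krt80, which are lower in them.

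Krt5, the basal type II keratin (ENSMUSG00000061527, GRCm38 chr15:101707070-101712891, minus strand), was at 2434, 2515 and 2897 CPM in control replicates 1, 2 and 3 and at 4248, 5247 and 5893 CPM in the DKO-labelled libraries. The lowest of the latter lay well above the highest control. The means were 2615 ± 248 and 5129 ± 829 CPM (SD, n = 3 each), a ratio of 1.96, and the fit gave a log2 fold change of 0.90 (SE 0.16, 95% interval 0.54 to 1.26, edgeR adjusted p = 0.00862). Fitted values include TMM factors, which the CPM values do not.

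Krt14, its type I partner and the gene whose promoter drives the Cre transgene (ENSMUSG00000045545, chr11:100203162-100207548, minus strand), was at 1018, 1171 and 1502 CPM in the controls, against 3728, 3903 and 5079 CPM in the DKO-labelled libraries. Its mean rose from 1230.4 ± 247 to 4236 ± 735 CPM (SD, n = 3 each), 3.44 times, with a log2 fold change of 1.71 (SE 0.19, 95% interval 1.29 to 2.13, edgeR adjusted p = 0.00097). This was the largest change in size among the 9 keratins, and it passed the threshold under all 18 alternatives. These include the sum of Krt14 with Krt16 and Krt17 given below, which is not a fit of Krt14 alone.

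Both genes have close relatives among the wound keratins, Krt6a, Krt6b and Krt16, which are made in injured or hyperproliferative epidermis. At a length of 150 bases, that of the reads, no stretch of the Krt5 or Krt14 transcripts was found in another gene's transcript, but at 75 bases 7.77% of the stretches of Krt5 and 5.71% of those of Krt14 were. Of these 165 stretches of Krt5, 100 were shared with Krt6a and 20 with Krt6b. Others were shared with Gm44323 (55), a miRNA gene that overlaps Krt5 and held 0 counts, Gm5478 (34) and Gm5414 (2). The 96 of Krt14 were shared with Krt16 and not with Krt17. The relatives themselves changed: Krt6a went from 132 ± 103 to 1682 ± 206 CPM (SD, n = 3 each, edgeR adjusted p = 0.0123) and Krt16 from 86.9 ± 78.5 to 1046 ± 252 CPM (adjusted p = 0.0476). The call of Krt16 did not hold in every fit that left out a library. With the counts of Krt5, Krt6a and Krt6b summed, a choice made after seeing the data, the fit gave 1.35 on the log2 scale (SE 0.15, edgeR adjusted p = 0.00101). With Krt14, Krt16 and Krt17 summed it was 1.71 (SE 0.19, edgeR adjusted p = 0.00096).

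Krt15, a type I keratin of a subset of basal cells and of the hair follicle bulge (ENSMUSG00000054146, chr11:100131758-100135928, minus strand), was at 728, 1164 and 1187 CPM in the controls, against 234, 673 and 330.3 CPM in the DKO-labelled libraries. The groups did not overlap, but replicate 2 of the latter lay close to the lowest control. The means were 1026 ± 259 and 412 ± 230.3 CPM (SD, n = 3 each), and the log2 fold change of -1.39 (SE 0.39, 95% interval -2.29 to -0.49) did not pass the threshold (edgeR adjusted p = 0.0513). Under other settings the adjusted p ran from 0.00033 to 0.194, past the threshold in 7 of 11 alternatives and in 1 of 6 fits that left out a library. Without DKO-labelled replicate 2 the fit gave -1.90 on the log2 scale (edgeR adjusted p = 0.00431).

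Hair follicle stem cell markers were set beside Krt15, because the bulge makes it too. Past the threshold were 6.26% of all genes tested as higher and 8.59% as lower. Of 6 such markers, 1 was higher and 1 lower past the threshold in the fit of all 6 libraries: Postn rose from 130 ± 74.3 to 559 ± 266 CPM and Lgr5 fell from 25.6 ± 12.0 to 1.99 ± 1.74 CPM (SD, n = 3 each; edgeR adjusted p = 0.0460 and 0.00785). The count higher was 1 without control replicate 3 and 0 without any other library, and the count lower was 4 without DKO-labelled replicate 3 and 1 otherwise. The summed level of the 6 was 249 to 464 CPM in the controls against 477 to 1130.2 CPM in the DKO-labelled libraries, and none of the 6 was at 0 throughout. Postn alone gave 376 to 864 CPM of the latter sums; without it the other 5 summed to 188, 328 and 256 CPM in the controls and to 100.3, 100.8 and 267 CPM in the DKO-labelled libraries. The median log2 fold change of the 6 was -0.93. The library with the most Krt15 among the latter, replicate 2, held the least Sox9 of the 3 (30.7 CPM, against 42.7 and 119 CPM). The part of these cells in the Krt15 values was not tested.

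Krt1, the type II keratin that marks the step out of the basal layer (ENSMUSG00000046834, chr15:101845428-101850786, minus strand), was at 1120.1, 1096 and 1621 CPM in the controls, against 2325, 2908 and 3090.3 CPM in the DKO-labelled libraries. It rose from a mean of 1279 ± 296 to 2774 ± 400 CPM (SD, n = 3 each), 2.17 times, without overlap (log2 fold change 1.05, SE 0.19, 95% interval 0.63 to 1.46, edgeR adjusted p = 0.00811). Tested against a change of 1.5-fold with glmTreat, neither Krt1 (adjusted p = 0.0807) nor Krt5 (adjusted p = 0.140) passed.

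Krt10, the type I partner of Krt1 (ENSMUSG00000019761, chr11:99385254-99389364, minus strand), was at 5563, 5397 and 6562 CPM in the controls, against 5871, 7824 and 5235 CPM in the DKO-labelled libraries. These ranges overlapped, with the highest and the lowest value both in the latter. The fit gave a log2 fold change of 0.04 (SE 0.18, 95% interval -0.35 to 0.43, edgeR adjusted p = 0.904). An antisense gene, Gm11940, shares 146 exon bases with Krt10 and held 150 to 767 counts, and whether the counting used strand is not given in the sources used here.

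Krt77, a type II keratin of suprabasal cells that lies 7945 bases from Krt1 (ENSMUSG00000067594, chr15:101858732-101869705, minus strand), did not pass either. Its CPM was 5312, 5278 and 6344 in the controls against 4745, 6692 and 3759.8 in the DKO-labelled libraries, again with the widest spread in the latter. The fit gave a log2 fold change of -0.23 (SE 0.20, 95% interval -0.69 to 0.22, edgeR adjusted p = 0.465).

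Krt80, a type II keratin of differentiating keratinocytes (ENSMUSG00000037185, chr15:101349571-101370125, minus strand), was at 703, 636 and 773 CPM in the controls, against 243, 331 and 199 CPM in the DKO-labelled libraries. Every control held more than the highest of the latter. The mean fell from 704 ± 68.8 to 258 ± 67.2 CPM (SD, n = 3 each), 2.73 times lower, with a log2 fold change of -1.53 (SE 0.19, 95% interval -1.94 to -1.11, edgeR adjusted p = 0.00149). It passed the threshold under all 17 alternatives.

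Krt78, a type II keratin of the upper epidermis (ENSMUSG00000050463, chr15:101946004-101954287, minus strand), was low, at 52.6, 66.6 and 55.4 CPM in the controls against 54.6, 71.5 and 53.7 CPM in the DKO-labelled libraries. The fit gave a log2 fold change of -0.03 (SE 0.17, 95% interval -0.41 to 0.35, edgeR adjusted p = 0.910). Krt2, the type II keratin of the uppermost spinous and granular cells, strongest in the skin of ear, sole and tail (ENSMUSG00000064201, chr15:101810689-101818169, minus strand), had the fewest counts of the 9. It held 31, 101 and 41 counts in the controls (2.57, 8.92 and 2.67 CPM) and 45, 17 and 154 counts in the DKO-labelled libraries (3.26, 1.16 and 8.68 CPM). At this depth a change of Krt2 was not detectable, with a 95% interval of the log2 fold change from -1.85 to 1.51 (edgeR adjusted p = 0.897).

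The sequence before the start was read for members with a window in the RefSeq promoter table (GRCm38.p6), because AP-2 factors bind GC-rich letters. Of the 9 keratins, 6 had a window. That of Krt14 began 1518 bases inside the gene as the count files give it and is not shown, and Krt1, Krt15 and Krt80 had none. The 250 bases before the start are shown for Krt5, which rose, for Krt10, which did not pass, and for Krt78, which alone held AP-2 letters, each on the minus strand and written 5′ to 3′ with matches to TATAAA or to the AP-2 letters in capitals.
Krt5, chr15:101712906-101713155: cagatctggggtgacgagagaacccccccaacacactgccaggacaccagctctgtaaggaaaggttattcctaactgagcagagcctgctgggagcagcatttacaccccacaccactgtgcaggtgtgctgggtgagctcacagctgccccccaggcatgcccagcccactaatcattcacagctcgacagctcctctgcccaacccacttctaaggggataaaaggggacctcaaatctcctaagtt
Krt10, chr11:99389365-99389614: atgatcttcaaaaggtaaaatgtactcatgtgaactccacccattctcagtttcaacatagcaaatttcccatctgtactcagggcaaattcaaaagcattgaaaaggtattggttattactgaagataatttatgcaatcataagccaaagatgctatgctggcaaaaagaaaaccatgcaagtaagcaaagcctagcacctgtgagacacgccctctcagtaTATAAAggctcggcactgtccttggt
Krt78, chr15:101954288-101954537: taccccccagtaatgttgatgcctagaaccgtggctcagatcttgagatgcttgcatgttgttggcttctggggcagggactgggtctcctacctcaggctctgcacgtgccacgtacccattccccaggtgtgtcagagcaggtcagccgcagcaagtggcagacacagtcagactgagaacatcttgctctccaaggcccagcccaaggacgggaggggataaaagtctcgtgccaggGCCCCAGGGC

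The AP-2 letters searched were GCCNNNGGC and GCCNNNNGGC, which read the same on both strands. The windows of Krt5, Krt10, Krt2 and Krt77 held neither, and that of Krt78 held GCCNNNNGGC at 10 bases before the start. Of all 32851 windows of this length, 13.7% held the first and 12.3% the second. TATAAA, searched on the gene's strand, was found in Krt10 at 26 bases before the start and in none of the other 4 windows, against 7.59% of all windows. CACCC, letters bound by Klf factors and searched on both strands, was found 3 times in Krt5, at 242, 145 and 118 bases before the start, once each in Krt10 (213 bases) and Krt2 (60 bases), not in Krt77 or Krt78, and in 52.0% of all windows. A match of letters is a description of these windows, not a binding site.

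The ratio of partners was then taken within each library, from CPM per kb of summed exon length so that genes of different length can be compared. Krt14 stood at 0.521, 0.580 and 0.646 of Krt5 in the controls, against 1.09, 0.927 and 1.07 in the DKO-labelled libraries. The mean ratio went from 0.582 ± 0.0623 to 1.03 ± 0.0911 (SD, n = 3 each), a log2 difference of 0.83, and the groups did not overlap (two-sided exact permutation test, p = 0.1). That is the smallest p that 3 against 3 libraries allow, so no such ratio could pass 0.05, and adjusted over the 6 ratios of single genes that were tested it is 0.15.

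Krt15 was set against each of its basal companions. Relative to Krt14 it stood at 0.711, 0.989 and 0.786 in the controls, against 0.0626, 0.171 and 0.0647 in the DKO-labelled libraries, with means of 0.829 ± 0.144 and 0.0996 ± 0.0623 (SD, n = 3 each) and a log2 difference of -3.21 (exact permutation p = 0.1, adjusted 0.15). Relative to Krt5 it went from a mean of 0.484 ± 0.104 to 0.0989 ± 0.0519 (SD, n = 3 each), a log2 difference of -2.39 (exact permutation p = 0.1, adjusted 0.15). Neither ratio overlapped between the groups.

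In the suprabasal pair, Krt10 stood at 5.74, 5.69 and 4.68 times Krt1 in the controls, against 2.92, 3.11 and 1.96 times in the DKO-labelled libraries. The mean ratio went from 5.37 ± 0.599 to 2.66 ± 0.618 (SD, n = 3 each), a log2 difference of -1.03 without overlap (exact permutation p = 0.1, adjusted 0.15). The ratios of Krt10 to Krt2 and of Krt2 to Krt1 overlapped between the groups, with log2 differences of 0.40 and -1.43 (exact permutation p = 1 and 0.4, adjusted 1 and 0.48).

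**Figure D2:**
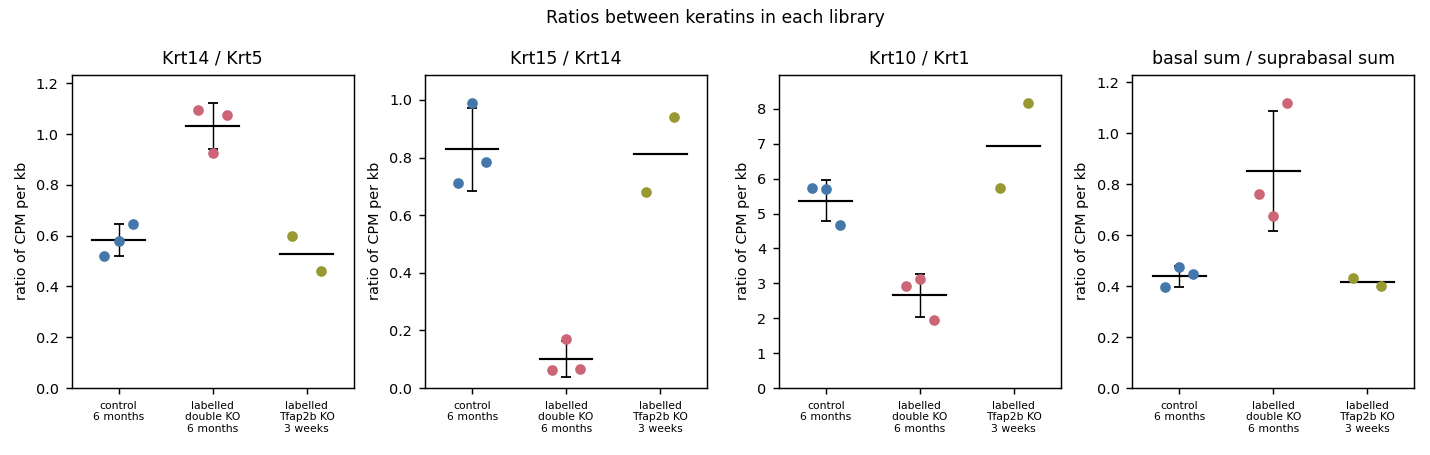
Ratios of keratins in each library, from CPM per kb of exon length (vertical axes, linear, from 0), for Krt14 to Krt5, Krt15 to Krt14, Krt10 to Krt1 and the basal to the suprabasal sum; points are libraries, horizontal lines means and vertical bars the SD of groups of 3 (KO, knockout). In each of the 4 ratios the groups at 6 months are apart. The 2 libraries labelled Tfap2b knockout stand at 0.597 and 0.459 for Krt14 to Krt5. They differ from the controls in both age and genotype, and no test was made.

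Summed over the layer, basal keratins stood at 0.396, 0.477 and 0.446 of the suprabasal keratins in the controls, against 0.762, 0.677 and 1.12 in the DKO-labelled libraries, with means of 0.440 ± 0.0412 and 0.853 ± 0.234 (SD, n = 3 each). The basal sum was 2102 to 2849 CPM per kb in the controls against 4193 to 5767 CPM per kb in the latter, while the suprabasal sum overlapped at 5184 to 6385 and 5154.5 to 7382 CPM per kb. The type I sum and the type II sum of the 9 keratins were close to equal in both groups, at ratios of 0.955, 1.03 and 1.01 in the controls against 1.08, 1.04 and 1.03 in the DKO-labelled libraries. The groups did not overlap in this ratio either, by a small margin (highest control 1.026, lowest DKO-labelled library 1.034). Keratins outside the 9 are not in these sums. The 9 keratins made up 1.69, 1.73 and 2.09% of all counts in the controls against 2.15, 2.76 and 2.36% in the latter.

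The share of each keratin in its sum showed which members the sums were made of. Krt5 took 46.4 to 52.9% of the basal sum in the controls against 46.3 to 48.0% in the DKO-labelled libraries. Krt14 took 26.9 to 30.0% and 44.4 to 50.6%, and Krt15 took 19.6 to 26.6% and 3.16 to 7.62%. In the suprabasal sum Krt10 took 48.6 to 49.5% and 48.0 to 50.5%, Krt1 took 8.62 to 10.4% and 16.1 to 24.5%, Krt77 took 33.9 to 34.7% and 24.9 to 30.9%, and Krt80 took 6.83 to 7.46% and 2.18 to 2.53%.

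**Figure D3:**
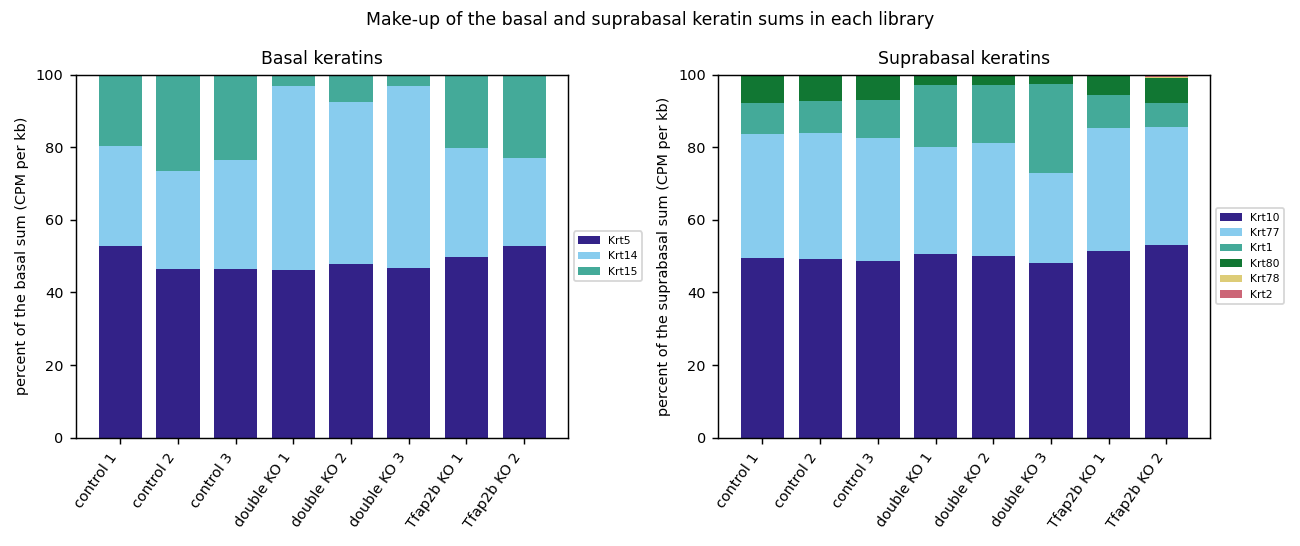
Share of each keratin in the summed CPM per kb of the 3 basal (left) and 6 suprabasal (right) keratins, in percent (vertical axis), with 1 bar per library: 3 controls and 3 labelled double knockout (KO) at 6 months, and 2 labelled Tfap2b knockout at 3 weeks. In the DKO-labelled libraries Krt15 is 3.16 to 7.62% of the basal sum (controls 19.6 to 26.6%) and Krt1 is 16.1 to 24.5% of the suprabasal sum (controls 8.62 to 10.4%); Krt78 and Krt2 are too small to see in most bars.

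By mean level per length, the order in the controls was Krt10 (2763 CPM per kb), Krt77 (1926.5), Krt5 (1194), Krt14 (699.9), Krt15 (581), Krt1 (523), Krt80 (397), Krt78 (16.9) and Krt2 (1.81). Among these neighbours the ranges over libraries overlapped for Krt14 with Krt15, although Krt14 was above in each of the 3 libraries, and for Krt15 with Krt1. In the DKO-labelled libraries the order was Krt10 (2985 CPM per kb), Krt14 (2409.8), Krt5 (2342), Krt77 (1729), Krt1 (1135), Krt15 (233), Krt80 (145), Krt78 (17.4) and Krt2 (1.67). There the ranges of Krt10, Krt14, Krt5 and Krt77 overlapped from each to the next, as did those of Krt15 and Krt80. Krt14 thus stood below Krt77 and Krt5 in the controls and above both in the other order.

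The other keratin genes of the mouse were listed by class, and 53 keratins of these lists, the 9 included, were in the files. Type I genes other than Krt18 lie on chromosome 11, with 3 of the 9, and type II genes on chromosome 15, with the other 6. Of the 37 tested, 6 were higher and 5 lower past the threshold, beside 6.26% higher and 8.59% lower of all genes tested. Of 14 other type I keratins tested, Krt16 was higher, and Krt23 (163 ± 34.9 to 69.9 ± 21.1 CPM, SD, n = 3 each, edgeR adjusted p = 0.00939), Krt32 (5.72 to 1.26 CPM) and Krt26 (1.56 to 0.190 CPM), keratins of the hair follicle in the latter 2 cases, were lower, with a median log2 fold change of -1.22. Of 14 other type II keratins tested, Krt6a and Krt6b (1.63 to 557 CPM) were higher and Krt7 (3.73 to 1.31 CPM), a keratin of simple and glandular epithelia, was lower, with a median of -0.92. Without control replicate 2 the other type I keratins counted 0 higher and 1 lower, with 5 at an unadjusted p under 0.05, and the other type II keratins 2 higher and 0 lower. Without control replicate 3 they counted 2 higher and 6 lower, and 2 higher and 4 lower. Without DKO-labelled replicates 1 or 3 the other type I keratins counted 0 higher and 1 lower, with 8 and 6 at an unadjusted p under 0.05. The call of Krt16 was thus lost in these fits and without control replicate 2. Without DKO-labelled replicate 3 the other type II keratins counted 1 higher and 1 lower, with 5 at an unadjusted p under 0.05. Many of these genes stood near 1 CPM, and the receptor-gene background was highest in control replicates 1 and 2. With that background subtracted, the other type I keratins counted 1 higher and 2 lower with a median of -1.13, and the other type II keratins 2 higher and 0 lower with a median of -0.75. The 9 keratins held 93.7 to 95.1% of all keratin counts in the controls against 82.6 to 88.5% in the DKO-labelled libraries.

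**Figure D4:**
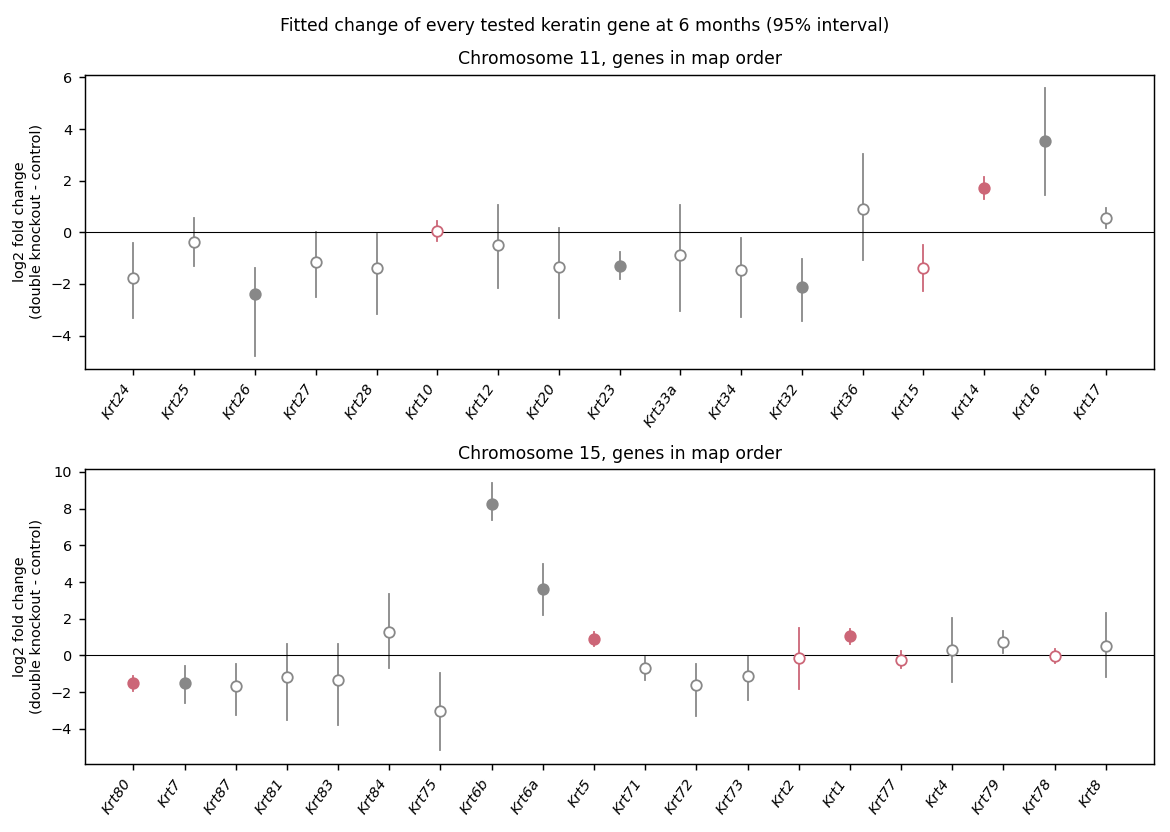
Fitted log2 fold change (vertical axis; double knockout minus control at 6 months) with its 95% interval for the 37 keratin genes tested, in map order on chromosome 11 (top, type I) and chromosome 15 (bottom, type II); red marks the 9 keratins described here, grey the others, and filled points passed an adjusted p of 0.05. Krt14 at 1.71 and Krt15 at -1.39 lie in the same cluster on opposite sides of 0, as do Krt1 at 1.05 and Krt80 at -1.53 on chromosome 15.

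Proteins that tie keratin filaments to junctions or bundle them were taken as a list. Of 12, 3 were higher and 1 lower, beside 6.26% higher and 8.59% lower over all genes tested. The median log2 fold change was 0.50 against -0.04 over all genes. Those higher were the desmosomal plakophilins Pkp3 (log2 fold change 0.71, edgeR adjusted p = 0.0220) and Pkp1 (1749 ± 111 to 2779 ± 145 CPM, SD, n = 3 each, edgeR adjusted p = 0.0169) and Dst, which links basal keratins to hemidesmosomes (log2 fold change 0.57, edgeR adjusted p = 0.0461). The filaggrin relative Flg2, a filament-associated protein of the granular layer, fell from 2097.5 ± 421 to 798 ± 289 CPM (SD, n = 3 each, edgeR adjusted p = 0.00981). The count of 3 higher changed with the libraries used. It was 0 without control replicate 1 or without DKO-labelled replicates 1 or 2. It was 1 without control replicate 2, 6 without control replicate 3 and 7 by DESeq2. Where it was 0, the calls over all genes had also fallen, from 2637 to 1381, 668 and 1043. At an unadjusted edgeR p under 0.05 the list then had 7, 8 and 8 of 12 genes, against 8 with all 6 libraries.

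Other genes of the same layers were set beside the keratins. Over all genes tested, 6.26% were higher and 8.59% lower past the threshold. Of 8 basal genes that are not keratins, 6 passed the threshold and each of these was higher, with a median log2 fold change of 0.82; the laminin receptor subunits Itgb4 and Itga6 had log2 fold changes of 0.98 and 0.90 and the hemidesmosomal collagen Col17a1 0.89 (edgeR adjusted p = 0.0118, 0.00408 and 0.0177). Without control replicate 2 this count was 3, and without DKO-labelled replicate 1 it was 2. In these fits the calls higher over all genes also fell, from 1111 to 448 and 313. At an unadjusted edgeR p under 0.05 the basal list had 6 and 7 of 8 genes in them, against 8 with all 6 libraries. Of 8 spinous genes 1 was higher, the desmosomal cadherin Dsg1b at 0.87, and 1 lower, its relative Dsc1 at -0.88, with a median of -0.34. The call of Dsc1 was lost in several fits, as the count lower was 0 without control replicate 1 or without any one of the DKO-labelled replicates. In these 4 fits, in that order, the calls over all genes also fell, from 2637 to 1381, 668, 1043 and 1353. At an unadjusted edgeR p under 0.05 the spinous list had 4, 2, 6 and 2 genes in them, against 4 with all 6 libraries. Of 8 granular genes 2 passed, both lower, the corneodesmosome protein Cdsn at -1.21 and the protease inhibitor Spink5 at -1.02, with a median of -0.13. Of 6 proliferation genes 5 were higher (3 without control replicate 2, 2 without DKO-labelled replicates 1 or 2), with a median of 1.23. In these fits, in that order, the calls higher over all genes were 448, 313 and 450, against 1111. At an unadjusted edgeR p under 0.05 the proliferation list had 5 genes in each of them, as with all 6 libraries. The mitotic cyclin Ccnb1 stood at 1.64 and the proliferation marker Mki67 at 1.47. The part of these genes in the basal keratin values was not tested.

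Among 20 transcription factors of keratinocytes, 3 were higher and 2 lower, with a median log2 fold change of 0.02. The shares over all genes tested were 6.26% higher and 8.59% lower. Maf, a factor of late differentiation, rose from 117.6 ± 22.7 to 312 ± 17.5 CPM (SD, n = 3 each, edgeR adjusted p = 0.00125). The Notch target Hes1 fell from 123 ± 19.5 to 53.5 ± 8.18 CPM and the differentiation factor Ovol1 from 162 ± 46.1 to 86.3 ± 12.3 CPM (SD, n = 3 each, edgeR adjusted p = 0.00242 and 0.0169). The 3 higher were 1 without control replicate 2 or DKO-labelled replicate 1, and 5 without control replicate 3. The 2 lower were 4 without control replicate 3 and 1 without DKO-labelled replicates 1 or 2.

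Markers of other cells that an epidermal sheet can hold moved with the groups in places. Their counts stand beside 6.26% higher and 8.59% lower of all genes tested. The 6 dermal fibroblast markers summed to 53.0 to 157 CPM in the controls against 11.7 to 23.0 CPM in the DKO-labelled libraries, with 3 of 6 lower past the threshold (6 without control replicate 3, 1 without any one of the DKO-labelled replicates). The 7 sebaceous gland markers summed to 1226 to 1462 and 779.9 to 870.2 CPM, and of 6 tested 1, the lipid desaturase Scd1, was lower. Scd1 alone went from 780 ± 65.4 to 193 ± 28.1 CPM (SD, n = 3 each, edgeR adjusted p = 0.00013). The median log2 fold change of the 6 tested was -0.18, beside -0.04 for all genes tested. Of 9 hair shaft and inner root sheath markers tested 1 was lower, Msx2, at summed levels of 475 to 808 and 566 to 732 CPM. Of 7 markers of Langerhans and other myeloid cells 1 was lower, H2-Ab1, at 618 to 846 and 507 to 785 CPM. The single skeletal muscle marker past the threshold, Acta1, was lower, at summed levels of 4.62 to 11.1 and 1.16 to 2.80 CPM. These single calls were mostly lost with a library left out. The count lower of the hair list was 0 without control replicate 2 or any DKO-labelled replicate, and that of the myeloid list was 0 without control replicates 1 or 2 or DKO-labelled replicates 2 or 3, and also with total counts. The muscle list had 0 lower without any one library other than control replicate 3, where it had 2. The sebaceous list kept 1 lower with each library left out. By edgeR no marker passed for T cells (60.0 to 131 and 33.3 to 107 CPM), melanocytes (12.6 to 29.5 and 10.3 to 27.8 CPM), endothelium (4.69 to 19.3 and 6.00 to 8.11 CPM) or red blood cells (4.07 to 8.39 and 2.97 to 5.30 CPM); at an unadjusted p under 0.05 the first 3 lists still had 0 and red blood cells had 1 of 2 tested, and DESeq2 called the same numbers. No adipocyte marker reached the test (0.781 to 7.07 and 0.205 to 1.24 CPM). In control replicates 1, 2 and 3 the adipocyte sums were 5.3, 7.07 and 0.781 CPM and the muscle sums 11.1, 6.80 and 4.62 CPM. The receptor-gene background was highest in control replicates 1 and 2. With it subtracted, 1 muscle marker was tested and 0 were lower, while the fibroblast list kept 3 lower of 5 tested. No marker of these lists was at 0 in all 6 libraries, and the part of these cells in the keratin values was not tested.

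The 2 libraries labelled Tfap2b knockout at 3 weeks have no control of that age with counts, so their levels are given with no test. Krt5 stood at 2601 and 2916 CPM, Krt14 at 1246 and 1075 CPM and Krt15 at 854 and 1017 CPM. Krt10 stood at 5999 and 7068 CPM, Krt1 at 1212 and 1001 CPM, Krt77 at 5466 and 5978 CPM, Krt80 at 525 and 779 CPM and Krt78 at 45.3 and 51.1 CPM. Each of these 8 keratins differed by less than 1.5 times between the 2 libraries, whereas Krt2 stood at 15.8 and 118 CPM (205 and 1482 counts). Replicate 1 held 2556 CPM of the fibroblast markers and 712 CPM of the adipocyte markers, against 17.3 and 0.240 CPM in replicate 2.

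Across the 8 libraries, the genes most like each keratin were ranked by Pearson's r of log2(CPM + 1) among 9098 genes with a mean of at least 10 CPM, as a description over libraries that share groups and depth. For Krt14 they were Gja1 (0.990) and Vdac1 (0.987), for Krt5 Rad50 (0.985) and Mgst2 (0.984), and for Krt15 Gzf1 (0.960) and Paqr7 (0.949). For Krt1 they were Sprr2a3 (0.983) and Fat2 (0.982), for Krt10 Slc6a2 (0.953) and Pigv (0.943), and for Krt80 Cgn (0.990) and 4921524J17Rik (0.987). For Krt2 they were the hair keratins Krt36 (0.958) and Krt84 (0.954), for Krt77 Pnpla3 (0.903) and Fry (0.899), and for Krt78 Gtf3c5 (0.889) and Vps4a (0.888). Among the keratins themselves, Krt14 was closest to Krt1 (0.980) and Krt5 (0.972), while Krt10 was at 0.107 with its partner Krt1 and 0.813 with Krt77.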

How the data were processed

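Total RNA of epidermal sheets was depleted of ribosomal RNA and sequenced in paired reads of 150 bp, per the labels' protocols. The deposited files hold whole-number counts per Ensembl gene, not normalized, with exon coordinates and summed exon length, per the file headers. The submitters' processing notes name Trimmomatic 0.36, STAR 2.5.2b, featureCounts, Subread 1.5.2 and the builds GRCh38 and GRCm38, without roles. Strand use and the treatment of multiply mapped reads are not given in the sources used here. Coordinates were read as GRCm38, and 49056 of 49315 identifiers had a symbol in GENCODE M21.

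Samples were grouped by title. The 6 libraries at 6 months were fitted in edgeR 4.0.16 (R 4.3.3): filterByExpr, TMM factors, glmQLFit (robust, prior count 2) and glmQLFTest. P-values were adjusted by Benjamini-Hochberg over the 17755 tested genes, and 0.05 was the threshold. The fit was tested on simulated data. CPM is counts per 1000000 counts of the library, without TMM factors. Ratios of CPM per kb were compared by exact permutation over libraries. Alternatives were other size factors and filters, DESeq2 1.42.0, limma-voom 3.58.1, glmTreat, a replicate block, all libraries in one fit, keratins left out of the scaling, subtraction of the receptor-gene background, and each library left out. The summed relatives, the ratios of Krt77 and Krt80, and the counts of each list under the alternatives were added after seeing the data.

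The 9 keratins and all gene lists were chosen with earlier results of these data known. All 9 keratins are named, and of each other list up to 4 members with the largest log2 fold change past the threshold, some of which are not reported here; Krt6a, Krt16, Krt17 and Sox9 are also given as relatives or markers. Promoter windows were from RefSeq (GRCm38.p6). The 13 files with every gene at 0 were not used.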

Additional observations from a re-analysis of the deposited data

Results flagged for a closer look

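Krt2 in the 2 libraries labelled Tfap2b knockout at 3 weeks was singled out because these libraries entered no comparison and both lay above every control library at 6 months. It stood at 15.8 CPM in replicate 1 and 118 CPM in replicate 2, against 2.57 to 8.92 CPM in the controls. Age and genotype both differ from those controls and cannot be told apart. No test was made.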

How the results depend on the processing

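The number of genes past the threshold was 2637. It was 4809 with no filter on low counts, 585 with glmTreat against a fold change of 1.5, 1729 with the replicate block, 1546 with all libraries in one fit, and 668 to 7542 with each library left out, lowest without double-knockout replicate 1 and highest without control replicate 3. The number of keratins higher was 3 throughout, except 1 with glmTreat. The number lower was 2 in place of 1, through Krt15, with median-ratio factors, no filter, at least 10 counts in every library, DESeq2, limma-voom, the replicate block or the background subtracted, and 1 to 2 with each library left out. Same-numbered libraries of the groups did not deviate together (r = 0.0271, -0.161 and -0.0588 over 17755 genes), nor did every library correlate best with its own number. With 3 libraries in each group this cannot show whether same-numbered libraries were paired, and the titles give only a number. Under the block the log2 fold change of Krt15 was -1.50 (edgeR adjusted p = 0.00809).

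Signs turned in 3 keratins that did not pass under any setting. The log2 fold change of Krt78 was 0.042 with total counts, 0.084 with no filter, 0.013 with all libraries in one fit and -0.14 to 0.080 with each library left out (above 0 without control replicates 2 or 3 or double-knockout replicates 1 or 3). That of Krt10 was -0.032 with the background subtracted and -0.11 to 0.21 with each library left out (below 0 without control replicate 2 or double-knockout replicate 2). That of Krt2 was -1.09 to 0.65 with each library left out (above 0 without control replicate 2 or double-knockout replicates 1 or 2). The cause was not tested. The ratio of Krt10 to Krt2, at a log2 difference of 0.40, was -0.50 to 1.24 with each library left out (below 0 without control replicate 2 or double-knockout replicate 2). The basal to suprabasal ratio, at a log2 difference of 0.93, was 1.24 with Krt15 left out of the basal sum, 0.56 with geometric means and 0.71 to 1.08 with each library left out. The type I to type II ratio, at 0.077, was 0.13 with geometric means. The other 5 ratios kept their direction in the alternatives run on them. With each library left out, the log2 difference ran from 0.75 to 0.90 for Krt14 to Krt5, from -3.69 to -2.96 for Krt15 to Krt14 and from -1.16 to -0.83 for Krt10 to Krt1. The low counts of Krt2 limit what can be seen of it.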

Other observations

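Some ratios between suprabasal keratins varied little within a group; they were computed after the values were seen and carry no test. Krt77 stood at 0.689, 0.706 and 0.698 of Krt10 per kb in the controls, at 0.583, 0.617 and 0.518 in the libraries labelled double knockout, and at 0.657 and 0.610 in those labelled Tfap2b knockout. Krt80 stood at 0.151, 0.140 and 0.140 of Krt10 in the controls, at 0.0493, 0.0504 and 0.0453 in the libraries labelled double knockout, and at 0.104 and 0.131 in those labelled Tfap2b knockout. Both ratios were lower in each library labelled double knockout than in each control, although the CPM of Krt10 and Krt77 overlapped between those groups.

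The likeness of the hair keratins Krt36 and Krt84 to Krt2 was seen at the highest levels in the libraries labelled Tfap2b knockout. The same order of libraries was seen at low levels in those labelled double knockout. There replicates 1, 2 and 3 held 3.26, 1.16 and 8.68 CPM of Krt2. They held 2.25, 0.136 and 4.79 CPM of Krt36 and 3.04, 0.614 and 9.64 CPM of Krt84. In the libraries labelled Tfap2b knockout Krt36 stood at 7.48 and 81.3 CPM and Krt84 at 7.40 and 101.6 CPM, highest in the replicate with 118 CPM of Krt2. In the 6 libraries at 6 months Krt36 did not exceed 4.79 CPM and Krt84 did not exceed 9.64 CPM. Control replicate 2, with the most Krt2 of the controls (8.92 CPM), held 1.24 CPM of Krt36, less than control replicate 1 (1.49 CPM). It held the most Krt84 of the controls (2.47 CPM, against 0.581 and 2.02 CPM in replicates 1 and 3).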
